A study of Homo sapiens with 40 samples.

Results

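ONO-AE1-329 (ONO) at 1 nM together with RNO was compared with ONO at 1 uM without RNO, with 4 libraries in each group, 8 of the 40 libraries in the series. ONO stimulates EP4, a receptor for prostaglandin E2, and RNO (roflumilast N-oxide) inhibits PDE4 phosphodiesterases. The libraries were chosen by their treatment labels, and all 12591 genes that passed a minimum mean level were compared. The cells were BEAS-2B, an immortalised human bronchial epithelial line, and every group was treated for 2 h after a night without serum. The ONO 1 nM + RNO group received 1 nM ONO and 1 uM RNO. The ONO 1 nM group received 1 nM ONO alone, and the ONO 1 uM group received 1 uM ONO alone, a concentration that the labels call maximal. Further groups of 4 libraries received 1 uM RNO alone, 100 nM vilanterol (a bronchodilator that raises cAMP) or vehicle. The ONO 1 nM + RNO and ONO 1 uM groups differ in both the dose of ONO and the presence of RNO, so the parts that dose and RNO play in a difference cannot be told apart from these groups alone. The labels do not say that replicates came from separate cultures, and the p-values then reflect only sample-to-sample spread, possibly technical.

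EP4 couples to the stimulatory G protein, which activates adenylyl cyclase and raises cAMP inside the cell. PDE4 enzymes break cAMP down, so an inhibitor such as RNO prolongs a cAMP signal. cAMP activates protein kinase A, which phosphorylates the transcription factor CREB, and CREB binds cAMP response elements in promoters of early genes such as the NR4A family.

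Levels are TPM (transcript abundance scaled for length and library size), adjusted between samples by the authors. The sequencing depth is unknown, since the table holds no counts. The standard deviation of a library's deviations from its group means was 0.0990 to 0.136 in ONO 1 nM + RNO and 0.106 to 0.130 in ONO 1 uM on the log2 scale, and replicate 3 of vehicle, at 0.209, was the highest of the 40 libraries. The largest entry, listed as MIR6723, took 24.5 to 25.8% of the total in ONO 1 nM + RNO and 25.7 to 26.4% in ONO 1 uM. Of 16 epithelial markers, 7 averaged at least 1 TPM over the 8 libraries, among them KRT8 (344 TPM) and KRT18 (273 TPM), while EPCAM (0.242 TPM) and CDH1 (0.679 TPM) were low. Mesenchymal markers such as VIM (1295 TPM) and COL1A1 (485 TPM) were high. Summed epithelial markers were 1185 to 1339 TPM in ONO 1 nM + RNO and 1438 to 1815 TPM in ONO 1 uM, and this sum includes KRT17, a called gene. Summed mesenchymal markers overlapped, at 2545 to 2672 TPM in ONO 1 nM + RNO and 2509 to 2742 TPM in ONO 1 uM. The leukocyte sum (12.3 to 14.05 TPM in ONO 1 nM + RNO, 12.5 to 13.3 TPM in ONO 1 uM) came almost wholly from CD68, and the sums of ciliated and secretory and of endothelial markers stayed below 2 TPM.

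With limma on log2(TPM + 1) over all 40 libraries and a Benjamini-Hochberg adjusted p under 0.05, 28 of 12591 genes (0.222%) were called. Of these, 26 were lower in ONO 1 nM + RNO than in ONO 1 uM (0.206% of genes tested) and 2 were higher (0.0159%). For all 28 the libraries of the groups did not overlap, as for 3.24% of all genes tested (1.39% higher, 1.85% lower). NR4A3 and CRISPLD2 were the genes called with a change of at least 2-fold on the log2(TPM + 1) scale, and both were lower. The number of lower genes was 8 without replicate 1 of ONO 1 nM + RNO, 11 without replicate 1 of ONO 1 uM, 16 without its replicate 3, 14 with libraries rescaled to equal totals, and 1 when only the groups compared were fitted. The number of higher genes was 0 at equal totals, 0 with only the groups compared and 6 with library weights. Other settings raised the counts, and a term for the replicate number over all 40 libraries gave 141 lower and 42 higher genes. Each of the 8 libraries correlated best with the library of its own number in the other group. The main fit leaves the replicate number out, so a gene not called there may be called with it. The calls of 7 genes were kept when each of the 8 libraries was left out in turn, namely NR4A3, ZNF331, CRISPLD2, KRT17, GPCPD1, C9orf72 and LINC01128.

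A gene that was not called is not thereby shown to be equal, so the 95% intervals bound the differences on the log2(TPM + 1) scale. That scale understates changes of low genes. The called gene TLE3 lay within 1.5-fold by its interval, although its mean TPM differed 1.52-fold. For 9917 genes (78.8%) the interval lay within 1.2-fold either way, for 12246 genes (97.3%) within 1.5-fold and for 12485 genes (99.2%) within 2-fold. The median difference over all genes was 0.0021 on the log2 scale, with 48.6% of genes below 0.

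ONO 1 nM without RNO was set beside these values. Between ONO 1 nM and ONO 1 uM, 266 genes were called (2.11%), 211 lower (1.68%) and 55 higher (0.437%), with 16 lower by at least 2-fold. Between ONO 1 nM + RNO and ONO 1 nM, 30 genes were called (0.238%), 28 higher (0.222%) and 2 lower (0.0159%), with 4 higher by at least 2-fold. These comparisons share libraries with the main one.

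**Figure D1:**
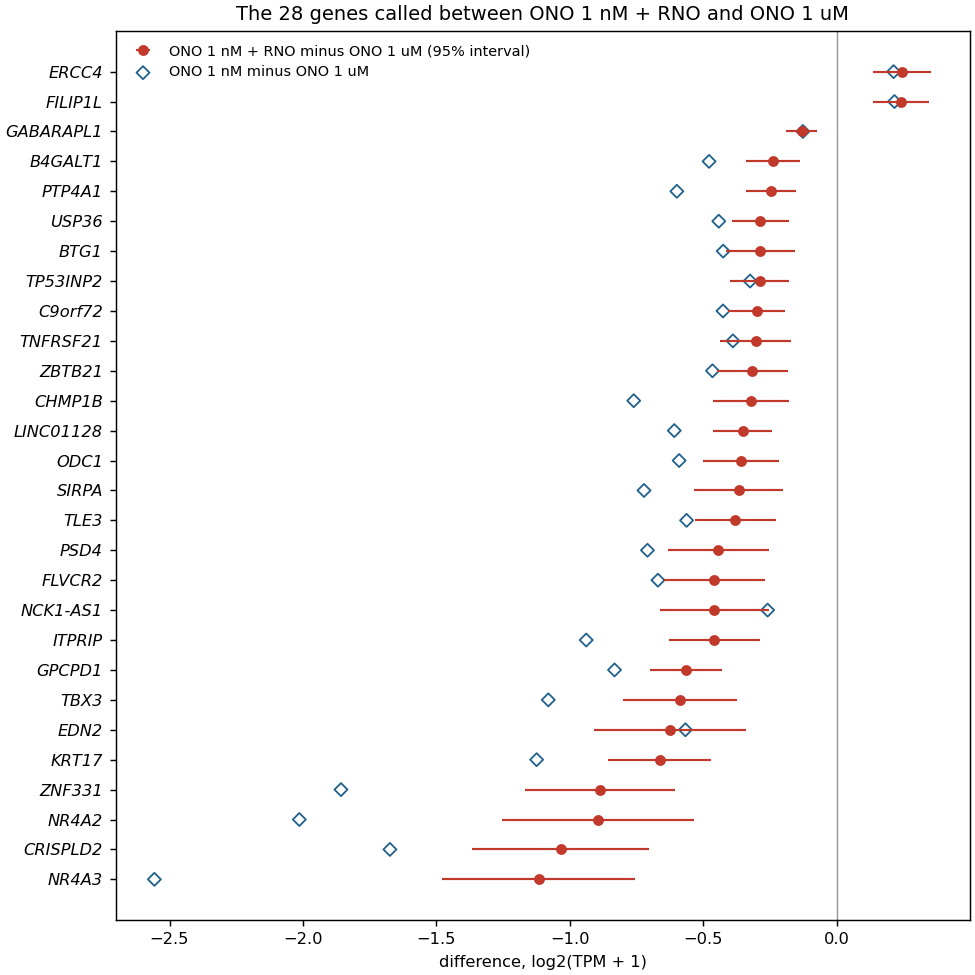
The 28 called genes with the log2(TPM + 1) difference of ONO 1 nM + RNO minus ONO 1 uM (filled circles, 95% interval) and of ONO 1 nM minus ONO 1 uM (open diamonds) on the horizontal axis. NR4A3, at -1.12 with RNO and -2.56 without, is the lowest with RNO, and ERCC4 and FILIP1L lie above 0.

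NR4A3, an orphan nuclear receptor induced early by cAMP, had the largest negative difference among called genes. Its level was 11.2, 19.98, 14.9 and 19.9 TPM in ONO 1 nM + RNO, against 41.3, 35.3, 31.7 and 36.4 TPM in ONO 1 uM. Every ONO 1 nM + RNO library was below every ONO 1 uM library and above every vehicle library. The means were 16.5 ± 4.26 TPM in ONO 1 nM + RNO and 36.2 ± 3.94 TPM in ONO 1 uM (SD, n = 4 each), 2.19-fold lower, with a log2 difference of -1.12 (95% interval -1.48 to -0.76, limma adjusted p = 0.000793). NR4A3 averaged 5.32 TPM in ONO 1 nM, 2.65 TPM in RNO, 73.3 TPM in vilanterol and 1.35 TPM in vehicle. The log2 difference of ONO 1 nM + RNO minus ONO 1 nM was 1.44 (limma adjusted p = 2.49e-05).

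Its relative NR4A2 was at 6.50, 7.78, 5.39 and 7.16 TPM in ONO 1 nM + RNO, against 18.6, 12.9, 9.86 and 12.8 TPM in ONO 1 uM. The highest ONO 1 nM + RNO library was below the lowest ONO 1 uM library, and replicate 1 was the highest of ONO 1 uM. NR4A2 was 2.02-fold lower in ONO 1 nM + RNO (log2 difference -0.89, 95% interval -1.25 to -0.53, limma adjusted p = 0.0123). This call was lost without replicate 1 or 3 of ONO 1 nM + RNO or without replicate 1 of ONO 1 uM, with adjusted p between 0.00663 and 0.126 over the 8 libraries left out in turn. NR4A1, another member of the family, averaged 40.2 ± 13.1 TPM in ONO 1 nM + RNO and 59.9 ± 9.78 TPM in ONO 1 uM, its libraries overlapped, and it was not called (log2 difference -0.61, 95% interval -1.05 to -0.17, limma adjusted p = 0.545).

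ZNF331, which encodes a zinc finger protein, was at 29.7, 40.2, 30.4 and 40.3 TPM in ONO 1 nM + RNO, against 83.6, 64.4, 51.3 and 65.2 TPM in ONO 1 uM. The groups did not overlap, and replicates 1 and 3 were the low libraries of ONO 1 nM + RNO. The means were 35.2 ± 5.92 TPM in ONO 1 nM + RNO and 66.1 ± 13.3 TPM in ONO 1 uM (SD, n = 4 each), 1.88-fold lower (log2 difference -0.89, limma adjusted p = 0.000793). ZNF331 averaged 17.4 TPM in ONO 1 nM, 10.2 TPM in RNO and 6.73 TPM in vehicle.

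CRISPLD2, a secreted protein whose gene also responds to glucocorticoids, was at 4.31, 7.80, 8.51 and 8.56 TPM in ONO 1 nM + RNO, against 14.1, 14.4, 18.4 and 15.6 TPM in ONO 1 uM. Replicate 1 was the lowest of the ONO 1 nM + RNO libraries, and all 4 were below the ONO 1 uM range. The means were 7.29 ± 2.02 TPM in ONO 1 nM + RNO and 15.6 ± 1.96 TPM in ONO 1 uM (SD, n = 4 each), 2.14-fold lower (log2 difference -1.04, 95% interval -1.37 to -0.70, limma adjusted p = 0.000793). CRISPLD2 averaged 4.29 TPM in ONO 1 nM, and ONO 1 nM + RNO minus ONO 1 nM was not called (log2 difference 0.64, limma adjusted p = 0.118).

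**Figure D2:**
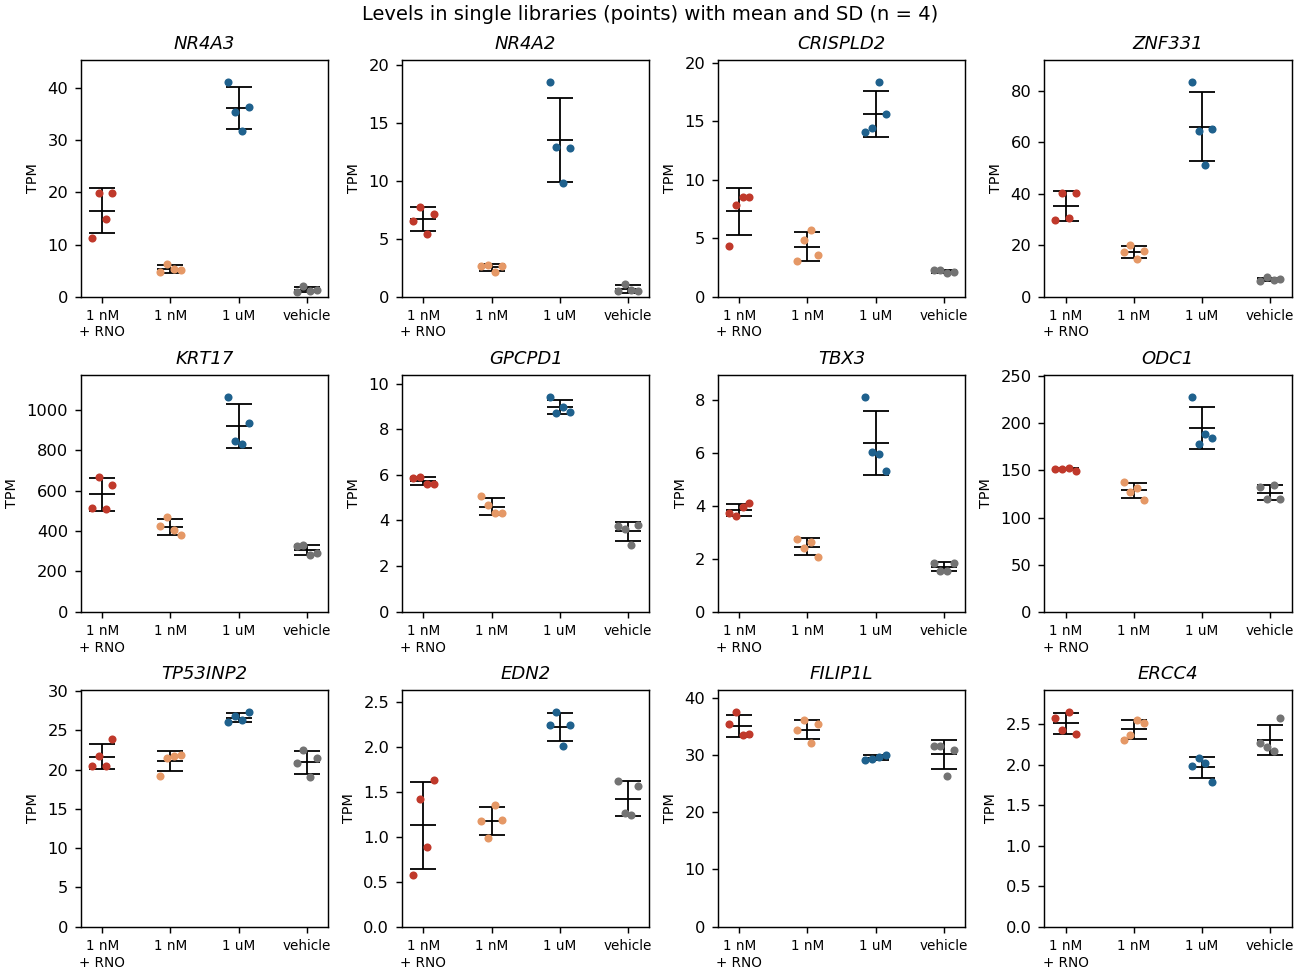
Levels of 12 called genes in TPM (vertical axes, from 0) in single libraries (points) with mean and SD (n = 4), from left to right ONO 1 nM + RNO, ONO 1 nM, ONO 1 uM and vehicle. The highest NR4A3 library of ONO 1 nM + RNO is at 19.98 TPM and the lowest of ONO 1 uM at 31.7 TPM.

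The promoters of 4 lower genes are shown for the core of the cAMP response element. The motif searched was TGACG on either strand, and the palindrome TGACGTCA holds it on both strands, overlapping. RefSeq windows (GRCh38.p14), 250 bases before to 50 bases after each start, matched 19 of the 26 lower genes and both higher genes. TGACG stood in 13 of the 19 lower genes (68.4%), against 28.4% of 27305 genes with a window. It stood in 21 of their 36 windows (58.3%), against 24.6% of 35116 windows. Of these 21 windows, 6 belong to ZNF331. A gene with more windows has more chances of a match, and the shares were not adjusted for the number of windows. The palindrome stood in 4 of the 19 (CHMP1B, GABARAPL1, TP53INP2 and ZBTB21), against 2.25% of all genes with a window. Among the higher genes, FILIP1L had TGACG in 1 window and ERCC4 in none. The background shares cover all genes with a window, and the share among the genes tested here was not computed. A match describes letters in a window and not a bound site. The windows printed are on the + strand, with TGACG and its reverse complement in capitals. NR4A3, at chr9:99821635-99821934, has 4 matches, which begin 109, 91, 83 and 25 bases before the start. ZNF331 has 6 windows in the table, all with a match, and the first, at chr19:53520764-53521063, has 1. GABARAPL1, at chr12:10212627-10212926, has the palindrome, and CRISPLD2, at chr16:84819735-84820034, has no match.
NR4A3: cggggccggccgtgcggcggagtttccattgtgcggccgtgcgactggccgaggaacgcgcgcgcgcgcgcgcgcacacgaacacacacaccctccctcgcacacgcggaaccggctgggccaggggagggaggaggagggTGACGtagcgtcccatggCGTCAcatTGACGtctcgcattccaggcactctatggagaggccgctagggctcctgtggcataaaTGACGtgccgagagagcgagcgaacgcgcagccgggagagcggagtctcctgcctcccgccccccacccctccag
ZNF331: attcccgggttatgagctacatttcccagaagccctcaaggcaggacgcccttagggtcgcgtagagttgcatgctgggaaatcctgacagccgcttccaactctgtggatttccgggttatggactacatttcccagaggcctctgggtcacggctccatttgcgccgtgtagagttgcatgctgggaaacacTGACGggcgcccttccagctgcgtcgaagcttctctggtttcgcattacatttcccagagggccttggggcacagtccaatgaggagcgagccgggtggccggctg
GABARAPL1: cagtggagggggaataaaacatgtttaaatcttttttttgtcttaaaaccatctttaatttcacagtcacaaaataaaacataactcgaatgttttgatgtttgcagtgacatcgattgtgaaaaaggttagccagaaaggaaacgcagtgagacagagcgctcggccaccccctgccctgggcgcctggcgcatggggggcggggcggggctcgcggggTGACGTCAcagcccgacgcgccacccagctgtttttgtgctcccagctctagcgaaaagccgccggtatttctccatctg
CRISPLD2: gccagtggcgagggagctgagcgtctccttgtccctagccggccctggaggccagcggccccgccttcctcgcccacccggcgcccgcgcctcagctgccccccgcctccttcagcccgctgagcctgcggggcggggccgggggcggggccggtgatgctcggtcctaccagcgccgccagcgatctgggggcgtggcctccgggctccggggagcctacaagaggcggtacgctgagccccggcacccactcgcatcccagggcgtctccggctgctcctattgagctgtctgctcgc

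KRT17, a keratin of basal and stressed epithelia, was at 515, 670.0, 512 and 630.2 TPM in ONO 1 nM + RNO, against 1067, 845, 833 and 937 TPM in ONO 1 uM. The highest ONO 1 nM + RNO library was below the lowest ONO 1 uM library. The means were 582 ± 80.7 TPM in ONO 1 nM + RNO and 920.5 ± 108 TPM in ONO 1 uM (SD, n = 4 each), 1.58-fold lower (log2 difference -0.66, limma adjusted p = 0.000309). KRT17 averaged 421 TPM in ONO 1 nM and 307 TPM in vehicle. KRT17 has near-identical pseudogene copies, so its level is uncertain where reads were split among them.

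GPCPD1, which splits glycerophosphocholine, had the smallest adjusted p. Its level was 5.85, 5.92, 5.601 and 5.59 TPM in ONO 1 nM + RNO, against 9.43, 8.73, 8.96 and 8.77 TPM in ONO 1 uM. The libraries of each group lay close together and the groups were apart. GPCPD1 was 1.56-fold lower in ONO 1 nM + RNO (log2 difference -0.56, 95% interval -0.70 to -0.43, limma adjusted p = 9.56e-06), and it kept its call under each of 23 alternative settings. It averaged 4.60 TPM in ONO 1 nM, 3.63 TPM in RNO and 3.52 TPM in vehicle.

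TBX3, a T-box transcription factor, was at 3.73, 3.63, 3.97 and 4.13 TPM in ONO 1 nM + RNO, against 8.14, 6.06, 5.98 and 5.33 TPM in ONO 1 uM. Replicate 1 of ONO 1 uM was the highest, and without it the limma adjusted p was 0.0527. With all libraries TBX3 was 1.65-fold lower in ONO 1 nM + RNO (log2 difference -0.59, limma adjusted p = 0.00448). ODC1, the rate-limiting enzyme of polyamine synthesis, was at 152, 151, 153 and 149.6 TPM in ONO 1 nM + RNO, against 228, 178, 189 and 185 TPM in ONO 1 uM. Replicate 1 of ONO 1 uM was again the highest, and the groups did not overlap. ODC1 was 1.29-fold lower in ONO 1 nM + RNO (log2 difference -0.36, limma adjusted p = 0.0104), a call lost without that library or without replicate 1 of ONO 1 nM + RNO (adjusted p up to 0.1199). EDN2, the vasoconstrictor peptide endothelin 2, was at 0.576, 1.42, 0.884 and 1.63 TPM in ONO 1 nM + RNO, against 2.24, 2.39, 2.01 and 2.25 TPM in ONO 1 uM. The ONO 1 nM + RNO libraries of EDN2 overlapped with vehicle, which averaged 1.42 TPM. EDN2 was 1.97-fold lower in ONO 1 nM + RNO than in ONO 1 uM (limma adjusted p = 0.0392), and the call was lost without any one of 6 of the 8 libraries (adjusted p up to 0.418).

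Some lower genes act in autophagy and membrane traffic, a grouping made after their values were seen. TP53INP2, an autophagy protein, was at 20.5, 21.7, 20.4 and 23.9 TPM in ONO 1 nM + RNO, against 26.01, 26.8, 26.2 and 27.4 TPM in ONO 1 uM. The groups did not overlap, but the ONO 1 nM + RNO libraries overlapped with vehicle, which averaged 20.9 TPM. TP53INP2 was 1.23-fold lower in ONO 1 nM + RNO (log2 difference -0.29, limma adjusted p = 0.00788), a call lost without replicate 1 or 3 of ONO 1 nM + RNO. C9orf72, a regulator of autophagy and endosomal traffic, averaged 6.01 ± 0.258 TPM in ONO 1 nM + RNO and 7.64 ± 0.405 TPM in ONO 1 uM (limma adjusted p = 0.00327). CHMP1B, an ESCRT-III subunit, averaged 51.4 ± 3.67 TPM in ONO 1 nM + RNO and 64.6 ± 6.39 TPM in ONO 1 uM (limma adjusted p = 0.0333), a call lost without any one of 5 libraries. GABARAPL1, an ATG8-family protein, had the smallest difference of the called genes, with 109 ± 1.30 TPM in ONO 1 nM + RNO and 120.1 ± 2.59 TPM in ONO 1 uM (log2 difference -0.13, limma adjusted p = 0.0352). Its call was lost when any one of the 8 libraries was left out, with adjusted p between 0.0521 and 0.222.

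The remaining 13 lower genes differed by 1.18-fold to 1.71-fold in mean. Enzymes and signalling proteins were the inositol trisphosphate receptor partner ITPRIP (9.19 TPM in ONO 1 nM + RNO, 13.1 TPM in ONO 1 uM), the phosphatase PTP4A1 (56.5 and 67.1 TPM in the same order), the galactosyltransferase B4GALT1 (40.4 and 47.8 TPM), the deubiquitinase USP36 (13.9 and 17.2 TPM) and the ARF6 exchange factor PSD4 (1.25 and 2.05 TPM). Surface proteins were the CD47 receptor SIRPA (27.5 TPM in ONO 1 nM + RNO, 35.5 TPM in ONO 1 uM), the death receptor TNFRSF21 (5.35 and 6.85 TPM) and the transporter FLVCR2 (1.15 and 1.96 TPM). Regulators of transcription and growth were the corepressor TLE3 (1.35 TPM in ONO 1 nM + RNO, 2.06 TPM in ONO 1 uM), the zinc finger protein ZBTB21 (10.9 and 13.9 TPM) and the antiproliferative factor BTG1 (11.3 and 13.96 TPM). The non-coding RNA LINC01128 averaged 5.78 ± 0.393 TPM in ONO 1 nM + RNO and 7.66 ± 0.528 TPM in ONO 1 uM. NCK1-AS1, an antisense RNA, averaged 1.14 ± 0.266 TPM in ONO 1 nM + RNO and 1.93 ± 0.221 TPM in ONO 1 uM, and was the one lower gene not also called higher with vilanterol (1.31 TPM in vilanterol, 1.38 TPM in vehicle). Whether counting used strand is not given in the sources used here, so reads of NCK1-AS1 and its sense partner may not be told apart. All of these 13 genes except LINC01128 lost the call without at least 1 of the 8 libraries. The ONO 1 nM + RNO libraries overlapped with vehicle for TNFRSF21, TLE3, BTG1 and NCK1-AS1. Vehicle averaged 5.35, 1.14, 9.25 and 1.38 TPM for these genes in that order.

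The 2 higher genes differed little in size. FILIP1L, a filamin-interacting protein, was at 35.5, 37.5, 33.5 and 33.6 TPM in ONO 1 nM + RNO, against 29.03, 29.3, 29.6 and 30.02 TPM in ONO 1 uM. Every ONO 1 nM + RNO library was above every ONO 1 uM library, 1.19-fold in mean (log2 difference 0.24, limma adjusted p = 0.0333). FILIP1L averaged 34.4 TPM in ONO 1 nM and 30.1 TPM in vehicle. ERCC4, the endonuclease XPF of nucleotide excision repair, was at 2.58, 2.43, 2.65 and 2.38 TPM in ONO 1 nM + RNO, against 1.98, 2.08, 2.02 and 1.79 TPM in ONO 1 uM. The groups were apart, 1.28-fold in mean (log2 difference 0.24, limma adjusted p = 0.0333), with 2.31 TPM in vehicle. Each of these calls was lost without any one of 6 of the 8 libraries (adjusted p up to 0.174 for FILIP1L and 0.205 for ERCC4), and none was left with libraries rescaled to equal totals.

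**Figure D3:**
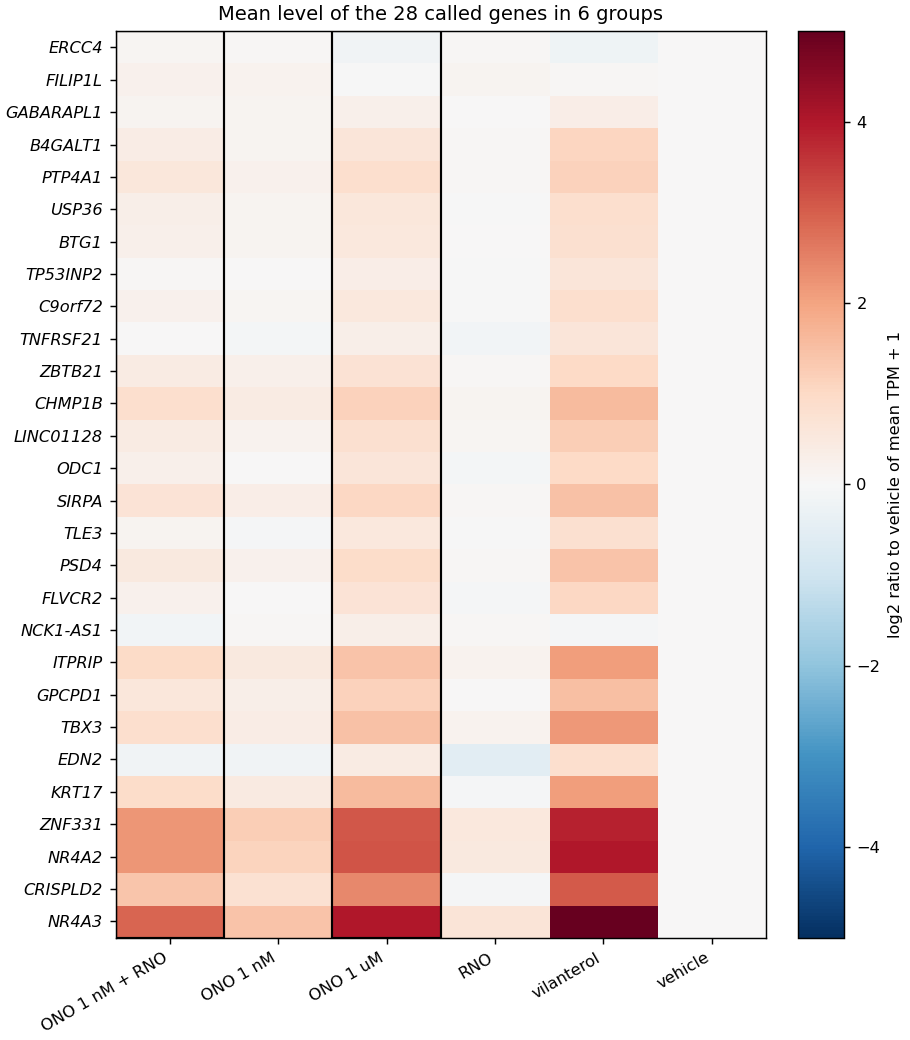
Mean level of the 28 called genes (rows) relative to vehicle, as the log2 ratio of mean TPM + 1 (colour), in ONO 1 nM + RNO, ONO 1 nM, ONO 1 uM, RNO, vilanterol and vehicle (columns, with boxes around the groups compared). NR4A3, at 16.5 TPM in ONO 1 nM + RNO, 36.2 TPM in ONO 1 uM and 1.35 TPM in vehicle, has among the deepest colours.

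Vilanterol, which raises cAMP through another receptor, gave gene lists from libraries outside the main comparison. The lists are not fully independent of it, since both use the estimate of spread from all 40 libraries. Vilanterol against vehicle called 2223 genes (17.7%), 1220 higher (9.69%) and 1003 lower (7.97%). Of the 1220 genes raised by vilanterol, 25 were lower in ONO 1 nM + RNO than in ONO 1 uM and none was higher, against 0.206% lower and 0.0159% higher over all genes tested. The count of 25 was 8 without replicate 1 of ONO 1 nM + RNO, 11 without replicate 1 of ONO 1 uM, 16 without its replicate 3, 14 at equal totals, and 1 when only the groups compared were fitted. With a term for the replicate number it was 134, of a longer list of 2039 genes raised by vilanterol. The median difference over the raised list was -0.057 on the log2 scale with 82.8% of its genes below 0, against 0.0021 and 48.6% over all genes. The median difference from vehicle was 0.13 in ONO 1 nM + RNO and 0.18 in ONO 1 uM. Averaged over the list, the log2(TPM + 1) level was 3.89, 3.97, 3.97 and 3.98 in ONO 1 nM + RNO, against 4.04, 4.03, 4.05 and 4.04 in ONO 1 uM. Replicate 1 of ONO 1 nM + RNO was the lowest, and the groups did not overlap.

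Among the 1003 genes lowered by vilanterol, 1 (ERCC4) was higher in ONO 1 nM + RNO and none was lower, against 0.0159% higher and 0.206% lower over all genes tested. Their median difference was 0.043 with 22.2% below 0, and the median difference from vehicle was -0.099 in ONO 1 nM + RNO and -0.14 in ONO 1 uM. The list average was 4.21, 4.19, 4.18 and 4.19 in ONO 1 nM + RNO, against 4.14, 4.14, 4.14 and 4.16 in ONO 1 uM. These groups did not overlap either. Both lists rest on the vehicle libraries, and without replicate 3 of vehicle, which stood apart, vilanterol called 984 genes higher and 822 lower, 26 of the raised list were lower in ONO 1 nM + RNO than in ONO 1 uM, and the medians were -0.064 over the raised and 0.040 over the lowered list. For ONO 1 nM minus ONO 1 uM, the medians were -0.096 over the raised and 0.076 over the lowered list.

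The bands of vilanterol response are a description, with no test. Over the 23 genes raised by at least 2 log2 units the median difference was -0.48, and 7 were called lower. Over the 105 genes raised by 1 to 2 units it was -0.26 with 8 called, over the 200 raised by 0.5 to 1 unit it was -0.15 with 9 called, and over the 892 raised by less it was -0.038 with 1 called. The most strongly raised band had a median over vehicle of 1.36 in ONO 1 nM + RNO and 1.75 in ONO 1 uM. Over the 12 genes lowered by more than 1 unit the median difference was 0.26, with 0 called.

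**Figure D4:**
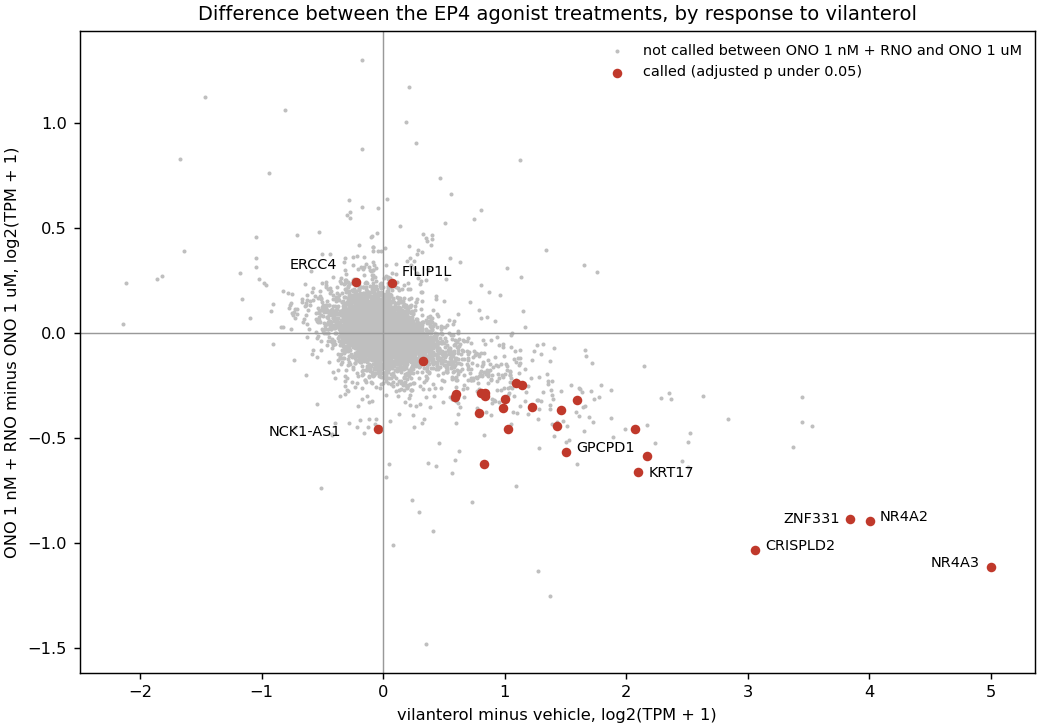
Each point is 1 of 12591 genes, with vilanterol minus vehicle on the horizontal and ONO 1 nM + RNO minus ONO 1 uM on the vertical axis, both as log2(TPM + 1) differences, and the 28 called genes in red. NR4A3 lies at 5.001 and -1.12, and NCK1-AS1 at -0.041 and -0.46.

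**Figure D5:**
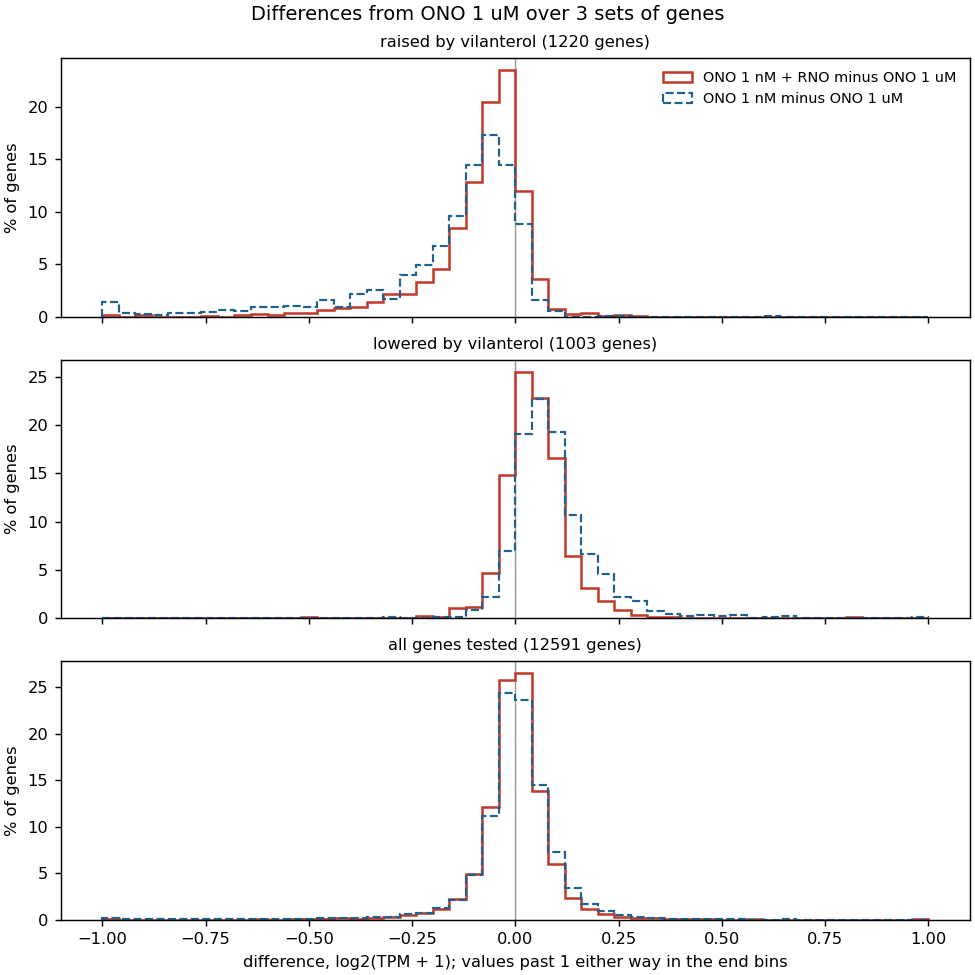
Distribution of the log2(TPM + 1) difference from ONO 1 uM (horizontal axis) for ONO 1 nM + RNO (solid) and ONO 1 nM (dashed), over 1220 genes raised and 1003 lowered by vilanterol and all 12591 tested, with values past 1 in the end bins. With RNO the median is -0.057 in the raised and 0.043 in the lowered list, and without RNO it is -0.096 and 0.076.

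RNO alone against vehicle called 30 genes (0.238%), 13 higher (0.103%) and 17 lower (0.135%), from libraries outside the main comparison but with the same estimate of spread. None of these 30 was called between ONO 1 nM + RNO and ONO 1 uM, and the interval lay within 1.5-fold for all 13 and all 17. The median difference was 0.00044 over the raised and 0.062 over the lowered genes, and without replicate 3 of vehicle -0.059 and 0.030. The early gene EGR1, lowered by RNO, averaged 6.81 ± 1.06 TPM in ONO 1 nM + RNO and 6.53 ± 0.290 TPM in ONO 1 uM, against 10.00 TPM in RNO and 19.03 TPM in vehicle. The MAPK phosphatase gene DUSP5, also lowered, averaged 40.5 ± 6.71 TPM in ONO 1 nM + RNO and 41.3 ± 3.50 TPM in ONO 1 uM, against 44.6 TPM in RNO and 71.7 TPM in vehicle. For both the groups overlapped, with a log2 difference of 0.043 for EGR1 (95% interval -0.27 to 0.36) and -0.039 for DUSP5 (-0.27 to 0.19), and the sign turned when some single libraries were left out.

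Genes of the cAMP machinery showed no call. Of 25 tested genes for cAMP synthesis, breakdown and receptors none was called, and their median difference was 0.00029. The interval lay within 1.5-fold for all of them on the log2(TPM + 1) scale, which understates changes of low genes. PTGER4, which encodes EP4, averaged 1.26 ± 0.233 TPM in ONO 1 nM + RNO and 1.24 ± 0.0848 TPM in ONO 1 uM (log2 difference 0.0065, 95% interval -0.17 to 0.18), a difference whose sign turned under some settings. Of the genes for the enzymes that RNO inhibits, PDE4D was at 5.97, 7.61, 8.54 and 8.88 TPM in ONO 1 nM + RNO, against 9.64, 9.07, 9.23 and 10.4 TPM in ONO 1 uM. The PDE4D libraries did not overlap, but it was not called (log2 difference -0.29, 95% interval -0.49 to -0.084, limma adjusted p = 0.510). PDE4B averaged 2.61 ± 0.328 TPM in ONO 1 nM + RNO and 2.77 ± 0.441 TPM in ONO 1 uM (95% interval -0.25 to 0.13), against 0.990 TPM in vehicle. PDE4A averaged 1.77 ± 0.267 TPM in ONO 1 nM + RNO and 1.67 ± 0.202 TPM in ONO 1 uM, and PDE4C was below the minimum level and not tested.

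Of 23 tested cAMP and CREB response genes, 3 (NR4A3, NR4A2 and ZNF331) were lower and none higher, against 0.206% lower and 0.0159% higher over all genes tested. Their median difference was -0.30, and 9 were lower without overlap, as were 1.85% of all genes. FOSB, a subunit of AP-1, averaged 6.45 ± 1.97 TPM in ONO 1 nM + RNO and 11.1 ± 1.87 TPM in ONO 1 uM, against 6.27 TPM in vehicle. Its groups did not overlap, but it was not called (log2 difference -0.73, limma adjusted p = 0.0826). It was called at a pseudocount of 5, without replicate 4 of ONO 1 nM + RNO and with a term for the replicate number. The cAMP-induced non-coding RNA LINC00473 averaged 47.1 ± 8.08 TPM in ONO 1 nM + RNO and 68.5 ± 5.33 TPM in ONO 1 uM (-0.54, limma adjusted p = 0.410). ATF3, a stress-induced transcription factor, averaged 23.6 ± 1.74 TPM in ONO 1 nM + RNO and 34.5 ± 4.72 TPM in ONO 1 uM (-0.52, limma adjusted p = 0.114). It was called with a term for the replicate number. Uncalled log2 differences were -0.44 for the kinase SGK1, -0.42 for the G protein regulator RGS2, -0.43 for the clock gene PER1 and 0.29 for the MAPK phosphatase DUSP1. PER1 and LINC00473 were each called under 1 of 23 alternative settings.

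Of 28 tested immediate early genes 1 (BTG1) was lower and none higher, with a median of 0.017, where 0.206% of all genes were lower. JUN, an AP-1 subunit, was at 60.3, 55.4, 51.8 and 50.7 TPM in ONO 1 nM + RNO, against 47.7, 40.2, 47.2 and 43.1 TPM in ONO 1 uM. All 4 ONO 1 nM + RNO libraries exceeded the ONO 1 uM libraries, without a call (log2 difference 0.29, limma adjusted p = 0.103). JUN was called with library weights and with a term for the replicate number. It averaged 86.2 TPM in vehicle. Of 18 glucocorticoid-responsive genes 1 (CRISPLD2) was lower, with a median of -0.14, and of 7 epithelial markers 1 (KRT17) was lower, with a median of 0.024. These single calls stand against the same 0.206% of all genes lower.

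No member of the other lists was called in the main fit, but some were under other settings. CD200 was called at a pseudocount of 5 and without replicate 4 of ONO 1 nM + RNO, and ZFP36L1 with library weights. A term for the replicate number called CD24 (limma adjusted p = 9.07e-10), CD200, TM4SF1 and ZFP36L1. Over 25 negative regulators of inflammatory signalling the median difference was -0.035, with the inhibitory ligand CD200 at 6.61 ± 1.34 TPM in ONO 1 nM + RNO and 9.46 ± 0.527 TPM in ONO 1 uM (-0.48, limma adjusted p = 0.105) and the RNA-decay factor ZFP36L1 at 40.8 ± 0.890 TPM in ONO 1 nM + RNO and 34.00 ± 2.03 TPM in ONO 1 uM (0.26, limma adjusted p = 0.114). Over 11 cytokines and chemokines the median was -0.026. The cytokine IL6 averaged 12.6 ± 1.57 TPM in ONO 1 nM + RNO and 16.5 ± 6.21 TPM in ONO 1 uM, against 60.5 TPM in vilanterol and 4.48 TPM in vehicle, and its interval of -0.74 to 0.13 was wide. The chemokine CCL2 averaged 190.2 ± 25.02 TPM in ONO 1 nM + RNO and 162 ± 16.1 TPM in ONO 1 uM. Over 15 surface and adhesion genes the median was -0.046, with TM4SF1, a membrane protein, at 169.7 ± 13.4 TPM in ONO 1 nM + RNO and 226 ± 17.8 TPM in ONO 1 uM (-0.41, limma adjusted p = 0.0929) and CD24, a surface glycoprotein, at 46.9 ± 5.61 TPM in ONO 1 nM + RNO and 74.3 ± 15.3 TPM in ONO 1 uM (-0.64, limma adjusted p = 0.167).

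Of 18 genes of glucose response and metabolism, 13 were below 0, with a median of -0.060. PFKFB3, which controls glycolytic flux, averaged 14.7 ± 1.79 TPM in ONO 1 nM + RNO and 18.1 ± 0.826 TPM in ONO 1 uM (-0.28, limma adjusted p = 0.0691). Of 19 cholesterol synthesis genes 18 were below 0, with a median of -0.078 and intervals within 1.5-fold for all. Of 19 genes of the unfolded protein and ATF4 response 14 were below 0, with a median of -0.048, and the amino acid transporter SLC7A5 averaged 309 ± 7.37 TPM in ONO 1 nM + RNO and 388 ± 40.1 TPM in ONO 1 uM (-0.32, limma adjusted p = 0.119). Over 17 YAP and TEAD targets the median was 0.017, with the kinase LATS2 at 72.6 ± 6.98 TPM in ONO 1 nM + RNO and 89.7 ± 5.74 TPM in ONO 1 uM and the matricellular protein CYR61 at 423 ± 32.1 TPM in ONO 1 nM + RNO and 358 ± 26.6 TPM in ONO 1 uM. Over 23 growth factors and receptors it was 0.00044, with FGF5 at 12.1 ± 0.265 TPM in ONO 1 nM + RNO and 10.1 ± 0.571 TPM in ONO 1 uM.

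Remaining medians were -0.0087 over 20 TGF-beta and BMP genes, -0.014 over 15 clock genes, 0.015 over 14 MAPK phosphatase, Sprouty and SPRED genes, 0.020 over 33 mitosis and cell cycle genes, 0.073 over 18 interferon-stimulated genes, -0.0043 over 5 prostanoid genes, 0.034 over 10 RGS genes and -0.0040 over 28 ribosomal protein genes. For the ribosomal protein and cell cycle genes every interval lay within 1.5-fold.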

How the data were processed

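RNA was read from poly(A)-selected strand-specific libraries, per the labels' protocols. The series' design text names 2 sequencing kits, but the labels do not assign libraries to them, so an effect of the kit was not tested. The submitters' processing notes name bcl2fastq 2.18.0.12, kallisto, sleuth, GRCh37 and hg19. The authors deposited a signal per gene, TPM adjusted between samples, for 15788 entries and 40 libraries, and of the adjustment itself nothing more is stated. The plan had assumed normalised TPM, and the values are called TPM here.

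Values became log2(value + 1), a scale that understates changes of low genes, and entries averaging at least 1 were kept. Group means were estimated with limma 3.58.1 under R 4.3.3, all 40 libraries sharing the estimate of spread (variance trend, 30 residual degrees of freedom). Genes with a Benjamini-Hochberg adjusted p under 0.05, adjusted over all genes tested, are described as called. Folds are ratios of mean TPM. The fit was tested on simulated data.

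The comparison, its members and the gene lists were chosen with earlier results of these data known. Named genes are the 10 highest and 10 lowest differences among called genes without overlap, filled up from the fit with the replicate number, up to 4 members of each list with the smallest p, the 10 strongest vilanterol responses each way, and the NR4A1 to NR4A3, PDE4 and PTGER4 genes, of which those that add to the text are given. Some results that this rule picks out are not reported here. Other genes were named after their values were seen. Alternatives were other pseudocounts, filters, scalings and variance models, a replicate term, the compared groups alone, library weights, and leaving out each library.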

Additional observations from a re-analysis of the deposited data

Results flagged for a closer look

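In 4 of 140 pairs of a named gene and one of the groups compared, 1 of the 4 libraries lay far from the other 3, and chance gives about 1 such pair in 20. PPP1R3B, a glycogen-targeting phosphatase subunit that was not called, was at 4.76 TPM in replicate 1 of ONO 1 nM + RNO and at 5.26 to 5.28 TPM in its other libraries. The entry LOC102724428/SIK1, which names 2 loci, was at 62.9 TPM in replicate 3 of ONO 1 nM + RNO and at 90.5 to 94.5 TPM in the others. PTP4A1, called lower, was at 62.6 TPM in replicate 2 of ONO 1 uM and at 68.5 to 69.04 TPM in the others, and it kept its call without that library. EGR1, which was not called, was at 6.96 TPM in replicate 3 of ONO 1 uM and at 6.32 to 6.43 TPM in the others.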

How the results depend on the processing

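ONO 1 nM + RNO against ONO 1 uM gave 2 higher and 26 lower genes. Higher genes numbered 1 at a mean of at least 5, 0 at equal library totals, 6 with library weights, 0 with only the 2 groups fitted and 0 with the replicate block added there. Lower genes numbered 14 at equal totals, 1 with only the 2 groups and 3 with the block added there. The replicate block over all libraries gave 42 higher and 141 lower genes. It called 23 further named genes, among them CD24 (limma adjusted p = 9.07e-10), ATF3, FOSB, JUN, CD200, TM4SF1 and ZFP36L1, and CD24 was also called in the 2 groups with the block. Deviations of same-numbered libraries of the 2 groups correlated at 0.471, 0.0968, 0.229 and 0.306 for replicates 1 to 4. Each library correlated best with its own number. Replicate 2, at 0.0968, fell just short of a cut of 0.1, and for that reason alone the numbers were not taken as pairs in the main fit. Spread shared by libraries of the same replicate number therefore stays in the p-values of that fit. Leaving out 1 library gave 0 to 2 higher and 8 to 28 lower genes. For ONO 1 nM + RNO against ONO 1 nM (28 higher, 2 lower), the block gave 122 and 29, the 2 groups alone 8 and 1, these with the block 56 and 5, library weights 73 and 7, and leaving out 1 library 10 to 45 and 0 to 3, while a mean of at least 5 gave 1 lower. For ONO 1 nM against ONO 1 uM (55 higher, 211 lower), the block gave 245 and 449, and leaving out 1 library 35 to 74 and 165 to 242, while the 2 groups alone gave 34 higher, these with the block 127 and library weights 99. For vilanterol against vehicle (1220 higher, 1003 lower), the block gave 2039 and 1892, the 2 groups alone 594 and 318, these with the block 682 and 422, and leaving out 1 library 984 to 1472 and 777 to 1230. Of the genes raised by vilanterol, 25 were called lower, against 14 at equal totals, 134 with the block, 1 with the 2 groups alone, 2 with these and the block, and 8 to 28 leaving out 1 library. The median of that list was -0.11 with the 2 groups alone, -0.10 with the block added there and -0.064 to -0.044 leaving out 1 library. The median of the lowered list was 0.071 at equal totals, 0.069 with the 2 groups alone, 0.066 with the block added there and 0.036 to 0.050 leaving out 1 library. The median of the genes raised by RNO was -0.040 at equal totals, -0.023 with library weights and -0.059 to 0.0092 leaving out 1 library, and that of the genes lowered by RNO was 0.16 in the 2 groups with the block and 0.030 to 0.11 leaving out 1 library. Leaving out 1 library, intervals lay within 1.5-fold for 96.5% to 97.3% and within 2-fold for 98.98% to 99.2% of genes. No called gene changed sign under the alternatives run. The uncalled differences of DUSP5 (0.013) and PTGER4 (-0.021) changed sign with library weights. Leaving out 1 library, the difference ran from -0.11 to 0.059 for DUSP5, -0.011 to 0.14 for EGR1, -0.13 to 0.0035 for PDE4B and -0.036 to 0.067 for PTGER4. The fits of 2 groups use fewer libraries for the spread. The other causes were not tested. Depth is unknown, so no limit from counting error can be given.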
